A study of Mus musculus with 4 samples.

Results

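Solute carriers (SLCs) are membrane proteins that move small molecules across the plasma membrane and the membranes of organelles. The SLC genes described here were those of the large peritoneal macrophage (LPM) table whose symbol had the form Slc, a family number, letters and a member number, and whose normalised read signal averaged at least 10 over the 4 libraries. Of 18364 genes in the table, 336 had such a symbol, 2 iron carriers among them were left out, 176 of the other 334 averaged under 10, and 158 remained as members. The members were therefore selected on their measured level, and that level is given below as a description. They belonged to 42 of the 45 SLC families among the 334 genes and were sorted by family into 13 classes of substrate.

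LPMs are the resident macrophages of the peritoneal cavity. The cells came from 8-week-old C57BL/6 mice, were double-sorted as F4/80+ MHCII-negative CD102+ cells, and gave 2 libraries labelled WT and 2 labelled Rxra-KO. In the study, Rxra, which encodes a nuclear receptor that binds DNA with many partners, was deleted by a Cre driven by the LysM (Lyz2) promoter in Rxra fl/fl mice, and the WT mice were Rxra fl/fl without that Cre. LysM-Cre acts in myeloid cells in general. The labels do not say whether each library came from a separate animal, and the study left out libraries that did not group with their own condition. The p-values therefore describe these libraries and not a known number of animals, and they rest mostly on a spread shared across genes. RNA was sequenced in bulk, in which fewer cells of a type and less RNA per cell cannot be told apart.

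SLC families are named by number, and members of a family usually share a class of substrate. Some carriers exchange one solute for another, some couple transport to sodium or proton gradients, and some let a solute flow down its own gradient. In macrophages, carriers of the plasma membrane supply amino acids, glucose, nucleosides and metals, carriers of lysosomes export the products of digested material, and the SLC25 family serves the inner membrane of mitochondria.

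The libraries held 629030 to 1047021 recovered reads, and a single read was worth 0.993 to 1.51 units of signal. Marker genes did not stay level between the groups. Of 9 LPM markers in the data 6 were called lower in Rxra-KO. Both Rxra-KO libraries lay below both WT libraries for 7 of the 9 and above them for 2. The summed signal of the 9 was 37707 and 40089 in WT against 20128 and 22702 in Rxra-KO, and the most abundant of them alone averaged 22452. Gata6, the transcription factor that defines LPMs, had 35 and 65 reads in WT against 3 and 24 in Rxra-KO. Of 8 markers of small peritoneal macrophages, the other macrophage population of the cavity, 7 were called higher, with sums of 368 and 112 in WT against 4335 and 5809 in Rxra-KO. In addition, 5 of 12 proliferation markers were called lower, with sums of 796 and 1864 against 355 and 309, and the lists for B, T and dendritic cells had 1 called gene each, Bank1 (lower), Cd2 (higher) and Cd209a (higher). No mast cell, mesothelial, neutrophil or erythroid marker was called by limma, and 2 of these 17 genes had an unadjusted p under 0.05. Rxra itself had 20 and 28 reads in WT against 33 and 77 in the libraries labelled Rxra-KO, giving a log2 fold change of 0.99 with an adjusted p of 0.183 by limma with Benjamini-Hochberg adjustment, so its total reads were not lower under that label. Rxra-KO in the text below stands for the libraries labelled so, and every direction rests on that label. Reads from exons outside the deleted part cannot be told apart in gene totals. Lyz2, the gene whose promoter drives the Cre, had signals of 14263 and 11591 in WT against 6386 and 6229.7 in Rxra-KO and was called lower (log2 fold change -1.03, adjusted p = 0.00163). The part of these differences in the SLC results was not tested.

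Among the members, 4 were called higher in Rxra-KO than in WT and none was called lower. These were Slc9a9, a sodium/proton exchanger of endosomes, Slc37a2, a sugar-phosphate and phosphate exchanger family member, Slc25a10, the mitochondrial dicarboxylate carrier, and Slc10a3, a member of the bile acid carrier family whose own substrate is unsettled. Calls needed an adjusted p under 0.05 by limma with Benjamini-Hochberg adjustment over all genes and a log2 fold change of at least 0.6 in either direction. Fold changes are on the log2(signal + 1) scale, on which the changes of genes with few reads come out too small. By this rule 2.29% of all genes were called, 1.32% higher and 0.969% lower. Of the 10049 genes that also averaged at least 10, 4.1% were called, 2.37% higher and 1.73% lower, and the 4 members were 2.53% of 158.

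The 4 called members belonged to different families and substrate classes. The 300 bases around the transcription start of 3 of them are shown because these genes moved in the same direction, and nuclear receptors such as RXR partners bind DNA near genes as well as far from them. They come from RefSeq on GRCm38.p6, from 250 bases before the start to 50 after it, and Slc10a3 had no entry. The windows are chr9:94669642-94669941 on the plus strand for Slc9a9, chr9:37255689-37255988 on the minus strand for Slc37a2 and chr11:120491587-120491886 on the plus strand for Slc25a10, and each is written 5′ to 3′ on the strand of its gene. Capitals mark the only match to the letters searched.
Slc9a9: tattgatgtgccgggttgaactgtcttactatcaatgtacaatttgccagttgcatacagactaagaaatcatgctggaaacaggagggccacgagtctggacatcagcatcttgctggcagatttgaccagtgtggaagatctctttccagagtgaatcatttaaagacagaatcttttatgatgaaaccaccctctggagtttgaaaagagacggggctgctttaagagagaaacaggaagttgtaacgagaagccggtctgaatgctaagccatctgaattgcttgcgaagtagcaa
Slc37a2: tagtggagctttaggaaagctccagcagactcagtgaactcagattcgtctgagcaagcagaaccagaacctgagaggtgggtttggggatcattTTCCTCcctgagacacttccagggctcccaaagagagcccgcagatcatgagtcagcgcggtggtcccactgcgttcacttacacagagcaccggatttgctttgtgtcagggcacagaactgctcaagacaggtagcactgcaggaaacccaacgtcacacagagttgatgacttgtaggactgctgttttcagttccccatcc
Slc25a10: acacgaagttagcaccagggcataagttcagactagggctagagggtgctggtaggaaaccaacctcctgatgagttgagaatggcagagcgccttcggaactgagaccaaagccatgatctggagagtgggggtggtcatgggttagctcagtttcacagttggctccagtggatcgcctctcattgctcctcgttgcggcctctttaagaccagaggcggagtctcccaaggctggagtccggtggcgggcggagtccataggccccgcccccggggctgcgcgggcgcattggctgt

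Neither the nuclear receptor half-site AGGTCA nor the E-box CACGTG occurred on either strand of these 3 windows. The core GAGGAA of the PU.1 motif occurred once, on the reverse strand of the Slc37a2 window as TTCCTC. Over the 32851 promoter windows of the same length, 16.3% held AGGTCA, 7.15% held CACGTG and 28.3% held GAGGAA on either strand, and the shares among the 150 windows of 119 members were 13.3%, 15.3% and 22%. A match is a description of letters and not a bound site, and an absent match says only that the letters are not in this window.

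Slc9a9 had signals of 29.5 and 13.6 in the WT libraries (19 and 12 reads) and 102 and 75 in the Rxra-KO libraries (67 and 75 reads). Both Rxra-KO libraries lay above both WT libraries. The group means were 21.5 ± 11.3 and 88.3 ± 18.8 (SD, n = 2 each), and the log2 fold change was 2.07 with an SE of 0.37, or 4.19-fold on the same scale, with an adjusted p of 1.32e-05 by limma with Benjamini-Hochberg adjustment. NHE9, its protein, sets the pH of recycling endosomes. Slc9a9 was the highest in fold change of all 158 members, and its call was lost in 1 of 15 alternative fits, the limma fit without a mean-variance trend.

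Slc37a2 had signals of 12.9 and 24.4 in WT (8 and 22 reads) against 62.5 and 53.1 in Rxra-KO (41 and 53 reads). The groups did not overlap, and the WT libraries differed from each other more than the Rxra-KO libraries did. The log2 fold change was 1.64 with an SE of 0.41 and an adjusted p of 0.00541 (limma, Benjamini-Hochberg adjustment). Slc37a2 is known from the endoplasmic reticulum and from lysosome-related organelles, and is abundant in macrophages and osteoclasts. Leaving out WT replicate 1 lowered the log2 fold change to 1.21 and leaving out WT replicate 2 raised it to 2.08, and the call was lost without WT replicate 1 or either Rxra-KO replicate.

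Slc25a10 had signals of 6.81 and 9.22 in WT (4 and 8 reads) against 32.4 and 33.3 in Rxra-KO (21 and 33 reads). Both WT libraries were low and both Rxra-KO libraries nearly level with each other. Its log2 fold change was 1.92 with an SE of 0.54 and an adjusted p of 0.0229 (limma, Benjamini-Hochberg adjustment). The call was lost without WT replicate 1 (1.73, adjusted p = 0.0805) and without either Rxra-KO library (1.94 and 1.90, with adjusted p of 0.306 and 0.297). The protein exchanges malate and succinate for phosphate across the inner mitochondrial membrane.

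Slc10a3 had signals of 3.79 and 14.6 in WT (2 and 13 reads) against 27.9 and 33.3 in Rxra-KO (18 and 33 reads). The WT libraries stood far apart, and 1 of them held 2 reads. The log2 fold change was 1.86 with an SE of 0.56 and an adjusted p of 0.0429 (limma, Benjamini-Hochberg adjustment), and without WT replicate 1 it fell to 1.01 and the call was lost, as it was without either Rxra-KO library (1.99 and 1.74, with adjusted p of 0.283 and 0.452). Slc10a3 shares 258 exon bases with Ubl4a on the same strand. Slc25a10 shares 228 and Slc37a2 241 exon bases with an antisense transcript, and the library kit does not mark strand, so reads in these stretches cannot be assigned to either partner.

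Slc25a10 and Slc10a3 averaged under 10 in WT and were members through the Rxra-KO libraries alone. The same held for 18 members in all, while 13 averaged under 10 in Rxra-KO and 127 averaged at least 10 in both groups, 2 of them called. A low WT value was therefore part of how such members came in, and their count gives no support to a direction.

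**Figure D1:**
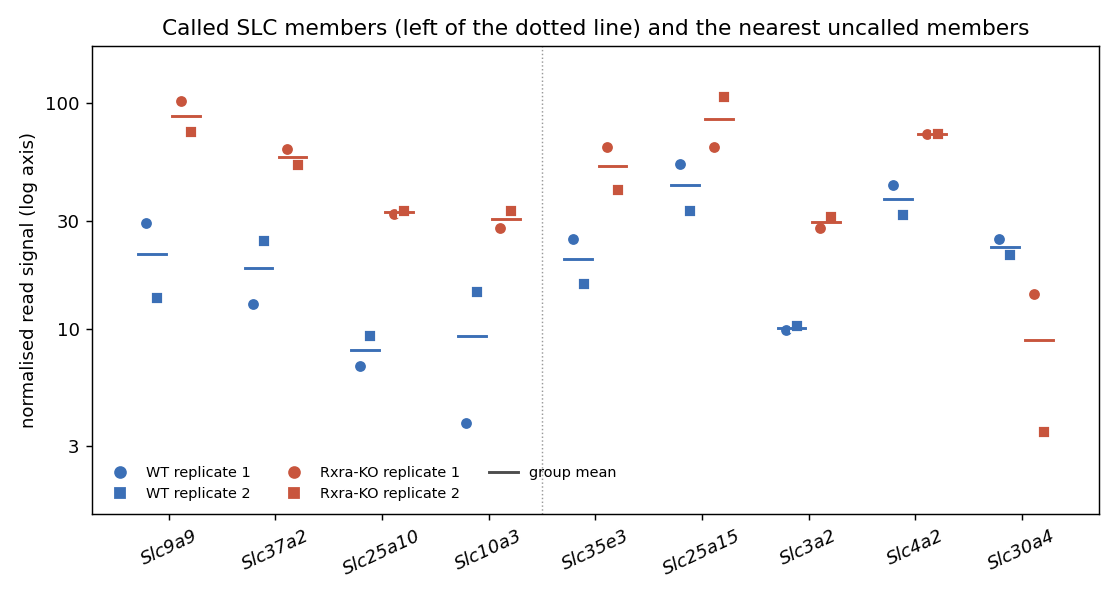
Normalised read signal (log axis) of the 4 called SLC members, left of the dotted line, and of the 5 uncalled members with the smallest p, in each WT (blue) and Rxra-KO (red) library, with group means as bars (n = 2 each). In 8 of the 9 genes both Rxra-KO libraries lie above both WT libraries, and Slc30a4 has the opposite order.

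Past the 4 called members, the smallest p-values belonged to 5 genes that missed the adjusted threshold. Slc35e3, an SLC35 carrier with no settled substrate, had signals of 25 and 15.7 in WT against 64.0 and 41.2 in Rxra-KO, which gave a log2 fold change of 1.33 (SE 0.41) and an adjusted p of 0.0547 by limma with Benjamini-Hochberg adjustment. The libraries of the groups did not overlap. Slc25a15, the mitochondrial ornithine carrier of the urea cycle, had 53.7 and 33.1 against 64.0 and 107, and 1 Rxra-KO library carried most of its difference of 0.95 (adjusted p = 0.136).

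Slc3a2, the heavy chain CD98 that pairs with several amino acid carriers, had signals of 9.84 and 10.3 in WT against 27.9 and 31.3 in Rxra-KO, which gave a log2 fold change of 1.46 (SE 0.52) with a limma adjusted p of 0.157. Slc4a2, the chloride/bicarbonate exchanger AE2, had 43.2 and 32.0 against 73.0 in both Rxra-KO libraries, a difference of 0.96 (SE 0.34; adjusted p = 0.159). The groups overlapped for neither gene, and these values rested on 6 to 31 reads of Slc3a2 and 28 to 73 of Slc4a2. Slc4a2 shares 694 exon bases with Fastk on the opposite strand, so reads in that stretch cannot be assigned to either gene. Slc30a4, which moves zinc out of the cytosol, was the lowest of all members at a log2 fold change of -1.54 (SE 0.60; limma adjusted p = 0.236), with signals of 25 and 21.2 in WT against 14.3 and 3.48 in Rxra-KO.

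An unadjusted limma p under 0.05 was found for 19 members, 18 of them with the higher mean in Rxra-KO and 1 with the lower. They were 12% of the members, beside 14.1% of the 10049 genes that averaged at least 10, of which 804 were higher and 614 lower. Some of the 18, Slc25a10 and Slc10a3 among them, averaged under 10 in WT and were members through the Rxra-KO libraries alone. The split by direction is therefore a description only. For the lower direction, edgeR, DESeq2 and limma-voom on recovered reads also called no member, and had 2, 0 and 2 members lower at an unadjusted p under 0.05. For the higher direction edgeR and limma-voom called 3 members each, without Slc10a3, and DESeq2 called Slc9a9 alone.

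Both Rxra-KO libraries lay above both WT libraries for 41 members (25.9%), beside 21.9% of the genes that averaged at least 10, and below both for 24 members (15.2%), beside 20%. For 93 members the groups overlapped. The log2 fold change was above 0 for 90 members and below 0 for 68, with a median of 0.14, while the other 9891 genes that averaged at least 10 had a median of 0.02. Differences within 0.6 either way were found for 104 members. The median SE of a member was 0.51, against 0.41 for those other genes, and members had a median of 16 reads per library. A difference of 0.6 was thus little more than the SE of a typical member.

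**Figure D2:**
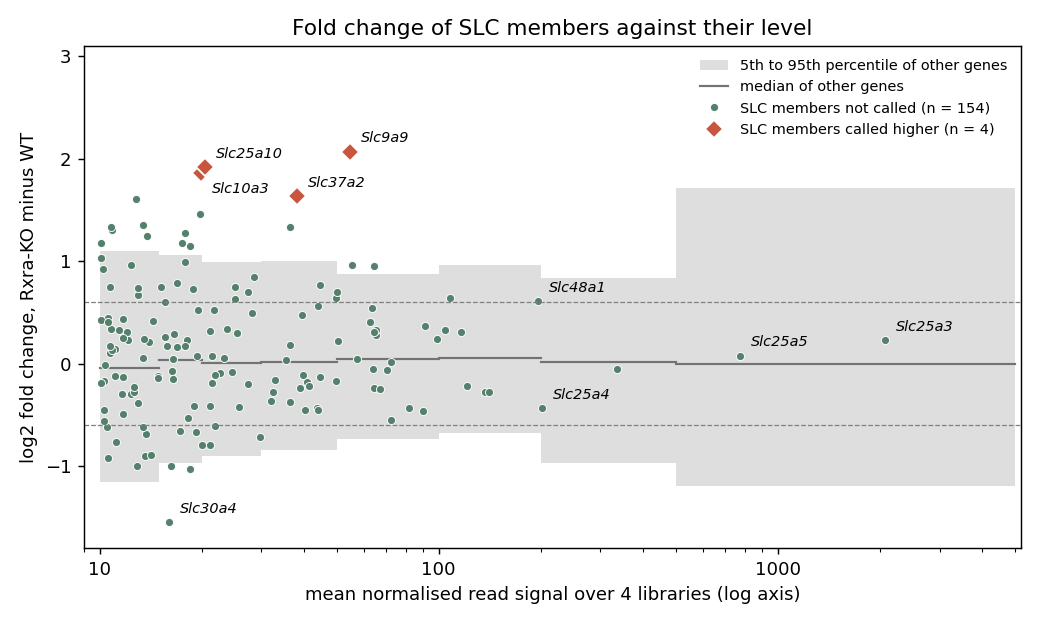
Log2 fold change (Rxra-KO minus WT) of 158 SLC members against their mean normalised read signal over 4 libraries (log axis), with the 5th to 95th percentile range (grey) and median (line) of the other genes by level and dashed lines at the fold change threshold of 0.6. The 4 called members (diamonds) lie at 1.64 to 2.07, and Slc30a4 at -1.54 is the lowest member.

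Signal was concentrated in few members. Of the 158, 11 averaged at least 100, 65 from 20 to under 100 and 82 under 20, and the members together made up 0.776% and 0.763% of the signal of the WT libraries and 0.879% and 0.851% of that of the Rxra-KO libraries. Divided by exon length, the highest levels belonged to Slc25a3, the mitochondrial phosphate carrier, at a mean of 1064 per kb, then the ADP/ATP carriers Slc25a5 at 624 and Slc25a4 at 105 per kb. The heme carrier Slc48a1 followed at 77.3 per kb. Slc39a1, Slc30a5 and Slc25a39 lay close together at 42.8 to 45.9 per kb, and their order differed between the groups. In WT the order was Slc25a39, Slc30a5 and Slc39a1, and in Rxra-KO it was Slc39a1, Slc30a5 and Slc25a39.

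The 25 mitochondrial carriers of the SLC25 family held 44% to 46% of the members' summed signal in every library. Slc25a3 had signals of 1931 and 1878 in WT against 2301 and 2175 in Rxra-KO, which gave a log2 fold change of 0.23 (SE 0.22). Slc25a5 had 639.7 and 859 against 633 and 964, with the second library of each group the higher, and a difference of 0.08 (SE 0.22). Slc25a4, the isoform typical of muscle and heart, had 219 and 245 against 159 and 186, so both Rxra-KO libraries were the lower, at -0.43 (SE 0.25; limma adjusted p = 0.605). Slc25a4 and Slc25a5 are close paralogs and genes of this family have processed pseudogenes, so the split of reads among them is uncertain. Besides Slc25a10 no SLC25 member was called, 2 of 25 had an unadjusted limma p under 0.05, and the class median was 0.08.

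Over all 25 mitochondrial carriers, Slc25a3 and Slc25a4 included, 5 members had both Rxra-KO libraries above WT and 5 had both below, 20% each. Over genes that averaged at least 10 these shares were 21.9% and 20%. Slc25a39, known as the mitochondrial glutathione carrier, had signals of 94.6 and 77.6 in WT against 62.5 and 54.1 in Rxra-KO, a difference of -0.55 (SE 0.31; limma adjusted p = 0.587). Slc25a28, mitoferrin 2, was the only member with no read in a library, WT replicate 1, against 19 reads in WT replicate 2. Slc25a11, the oxoglutarate carrier, also depended on the library, with 44.7 and 7.05 in WT against 18.8 and 3.48 in Rxra-KO. Without Slc25a3 and Slc25a5 the summed signal of the class was 891 and 902 in WT against 781 and 932 in Rxra-KO, so the groups overlapped.

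Amino acid and peptide carriers were the largest class, with 29 members of 53 genes in the table. None was called by limma, 2 had an unadjusted p under 0.05, and 24 of 29 overlapped between the groups, with a median log2 fold change of 0.14. Slc16a10, which carries aromatic amino acids, had signals of 152 and 109 in WT against 95.6 and 128 in Rxra-KO, and the groups overlapped. Slc38a10, of the family of sodium-coupled neutral amino acid carriers, had 90.1 and 112 against 172 and 90.9. Slc43a2, a carrier of branched-chain and other large neutral amino acids, had 81.0 and 99.3 against 124 and 90.9.

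Slc3a2 reaches the cell surface together with light chains that do the transport. Of 10 heavy and light chain genes of heteromeric amino acid carriers looked up, 9 were in the table and Slc7a5 was not. Of these 9, 5 were members and none was called by limma. An unadjusted limma p under 0.05 was found for 2 of the 9, Slc3a2 being the member among them. The median was 0.37 over the 9 and 0.33 over the members. Slc7a7, a light chain for cationic amino acids, had signals of 6.81 and 19.0 in WT against 17.3 and 24.3 in Rxra-KO. Slc7a11, the cystine/glutamate light chain, had 20.4 and 2.71 against 15.8 and 6.46, so its libraries differed more within a group than between groups. The 3 cationic amino acid carriers of the SLC7 family in the table had a median of -0.09.

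Ion carriers gave the member with the largest difference, Slc9a9, and otherwise no call among 17 members, 2 of which had an unadjusted limma p under 0.05. The potassium/chloride cotransporter Slc12a7 (KCC4) had signals of 46.2 and 57.0 in WT against 70.0 and 80.9 in Rxra-KO, at 0.54 (SE 0.32; adjusted p = 0.616), and Slc12a4 (KCC1) had 6.81 and 4.88 against 17.3 and 22.3, at 1.61 (SE 0.64; adjusted p = 0.254). Both had Rxra-KO libraries above WT libraries and neither passed the threshold.

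Metal and heme carriers lay on both sides of 0. Among 16 members none was called by limma, and 5 had an unadjusted p under 0.05, 4 higher and 1 lower. Both Rxra-KO libraries lay above WT for 5 (31.2%) and below for 5 (31.2%), beside 21.9% and 20% of genes that averaged at least 10. The class median was -0.17 and became 0.10 without WT replicate 2. Slc48a1, which moves heme out of lysosomes and phagosomes when macrophages digest red cells, had signals of 143 and 168 in WT against 242 and 232 in Rxra-KO, so the groups did not overlap. Its log2 fold change of 0.61 (SE 0.25) had a limma adjusted p of 0.285.

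Zinc carriers were counted by direction of transport. SLC39 proteins bring zinc into the cytosol, and Slc39a1 had signals of 74.9 and 94.9 in WT against 139 and 125 in Rxra-KO (0.64, SE 0.28; limma adjusted p = 0.355). Slc39a10 had 12.9 and 8.14 against 21.8 and 27.3 (1.18, SE 0.54; adjusted p = 0.402). Of 14 SLC39 genes in the data 8 were members and none was called by limma, with a median of -0.03, 4 above 0 and 4 below. Slc39a9 had 44.7 and 57.0 in WT against 44.4 and 30.3 in Rxra-KO (-0.45, SE 0.37) and Slc39a7 had 44.7 and 37.4 against 26.3 and 37.2 (-0.37, SE 0.39). Over all 14 genes 3 had an unadjusted p under 0.05, Slc39a1 and Slc39a10 being the members among them, and the median was 0.22. SLC30 proteins move zinc out of the cytosol, and of 10 genes in the data 5 were members and none was called by limma, with a median of -0.28, 1 above 0 and 4 below. Over all 10 genes 2 had an unadjusted p under 0.05, Slc30a1 and Slc30a4, and the median was -0.15. Slc30a1, the exporter of the plasma membrane, had 34.1 and 29.8 in WT against 41.4 and 73.0 in Rxra-KO (0.77, SE 0.37; adjusted p = 0.443). Slc30a5 of the secretory pathway had 164 and 146 against 135 and 121 (-0.28, SE 0.26). The summed signal of SLC39 genes was 294 and 321 in WT against 404 and 349 in Rxra-KO, and that of SLC30 genes was 312 and 279 against 260.5 and 276.

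Nucleotide sugar carriers feed glycosylation in the Golgi apparatus and endoplasmic reticulum. Their class also held carriers of other cofactors of these organelles and carriers with no settled substrate. Of the 15 members of the class none was called by limma, and 1 had an unadjusted p under 0.05 (Slc35e3). Both Rxra-KO libraries were higher for 6 (40%) and both lower for 2 (13.3%), beside 21.9% and 20% of genes that averaged at least 10. Of the 15, 2 averaged under 10 in WT and were members through the Rxra-KO libraries alone, and 0 averaged under 10 in Rxra-KO. The median was 0.33, and it does not describe nucleotide sugar carriers alone. These counts and the median are descriptions only. The orphan carrier Slc35e2 had signals of 140.1 and 160 in WT against 108 and 142 in Rxra-KO. Slc35e1, another orphan, had 59.8 and 84.1 against 56.5 and 81.9. Slc35b2, which imports the sulfate donor PAPS into the Golgi, had 71.9 and 45.0 against 64.0 and 80.9. The groups overlapped for these 3 members.

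Carriers of organic cations, anions and amines had a median of 0.02 over 13 members. None was called by limma and 1, Slc18a1, had an unadjusted p under 0.05. Slc17a5 (sialin), which exports sialic acid from lysosomes, had signals of 67.4 and 92.8 in WT against 98.6 and 106 in Rxra-KO, a difference of 0.37 (SE 0.29). Slc22a15 had 91.6 and 114 against 56.5 and 96.8. The taurine carrier Slc6a6 had 84.0 and 60.2 against 65.5 and 79.0, at 0.02 (SE 0.31).

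Of carriers for bicarbonate, phosphate, sulfate and other anions, 8 of 11 members had the higher mean log signal in Rxra-KO. Both Rxra-KO libraries lay above WT for 5 (45.5%) and below for 1 (9.09%), beside 21.9% and 20% of genes that averaged at least 10. None was called by limma and 3 had an unadjusted p under 0.05, Slc4a2, Slc34a2 and Slc26a6, with a class median of 0.34 that ran from 0.22 to 0.47 over the alternative fits. The summed signal was 163 and 162 in WT against 231 and 232 in Rxra-KO, a ratio of means of 1.42. Of the 8 members with a positive fold change 4 averaged under 10 in WT and were members through the Rxra-KO libraries alone, Slc26a6 among them, and 2 with a negative one averaged under 10 in Rxra-KO, so the count, the median and the sum of this class are descriptions only. Slc34a2, a sodium/phosphate cotransporter, had 9.84 and 12.5 against 26.3 and 25.3 (1.15, SE 0.53; adjusted p = 0.393). Slc20a1, the phosphate importer PiT-1, had 28.0 and 30.9 against 23.3 and 20.4 (-0.42, SE 0.45), so the fold changes of these phosphate carriers had opposite signs.

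Sugar and polyol carriers included Slc37a2, and 1 of 10 members had an unadjusted limma p under 0.05. Slc2a6, a glucose carrier family member of lysosomes, had signals of 47.7 and 35.3 in WT against 44.4 and 32.3 in Rxra-KO. Slc5a3, the sodium/myo-inositol cotransporter, had 35.6 and 23.3 against 27.9 and 22.3, and it shares 159 exon bases with Mrps6. Of 11 facilitative glucose carrier genes in the data 4 were members and none was called, with 1 at an unadjusted p under 0.05 and summed signals of 117 and 111 in WT against 106 and 113 in Rxra-KO.

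Smaller classes held no other call than Slc10a3. Among 7 carriers of mono-, di- and tricarboxylates, Slc16a6 had signals of 62.8 and 52.6 in WT against 51.9 and 93.9 in Rxra-KO, and the dicarboxylate carrier Slc13a3 had 22.0 and 46.1 against 44.4 and 45.2. The lactate and pyruvate carrier Slc16a7 was the 1 member of this class with an unadjusted p under 0.05, but rested on 1 read in WT replicate 1 against 14 in WT replicate 2. Slc5a12 had 8.33 and 16.8 against 18.8 and 18.4.

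For vitamins and choline, 6 members had a median of 0.05 and none had an unadjusted p under 0.05. Slc5a6, which takes up biotin and pantothenate, had signals of 58.3 and 47.2 in WT against 48.9 and 44.2 in Rxra-KO. The ascorbate carrier Slc23a2 had 26.5 and 20.1 against 36.9 and 29.3, and the choline carrier Slc44a1 had 18.9 and 22.2 against 36.9 and 31.3. The Rxra-KO libraries of both lay above the WT libraries, at 0.49 (SE 0.43) and 0.70 (SE 0.44).

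Among 4 nucleoside carriers the lysosomal Slc29a3 had signals of 114 and 72.1 in WT against 102 and 129.6 in Rxra-KO, and the groups overlapped. Slc28a3, which takes up nucleosides with sodium, had 73.4 and 71.1 against 51.9 and 71.0. Slc28a2 had 14.4 and 28.7 against 14.3 and 44.2. None of the 4 had an unadjusted p under 0.05.

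Among 4 lipid-related members the fatty acid transport protein Slc27a1 had signals of 23.5 and 21.2 in WT against 17.3 and 31.3 in Rxra-KO. Slc10a1, the bile acid importer of liver cells, had 29.5 and 12.5 against 36.9 and 16.4. Reads of Slc10a1, of Slc12a5, a neuronal potassium/chloride cotransporter, and of Slc6a18, a kidney amino acid carrier, were present in all 4 libraries, and their source was not tested. The urea carrier Slc14a1 was the only member of its class, with 15.9 and 8.14 against 23.3 and 10.4.

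**Figure D3:**
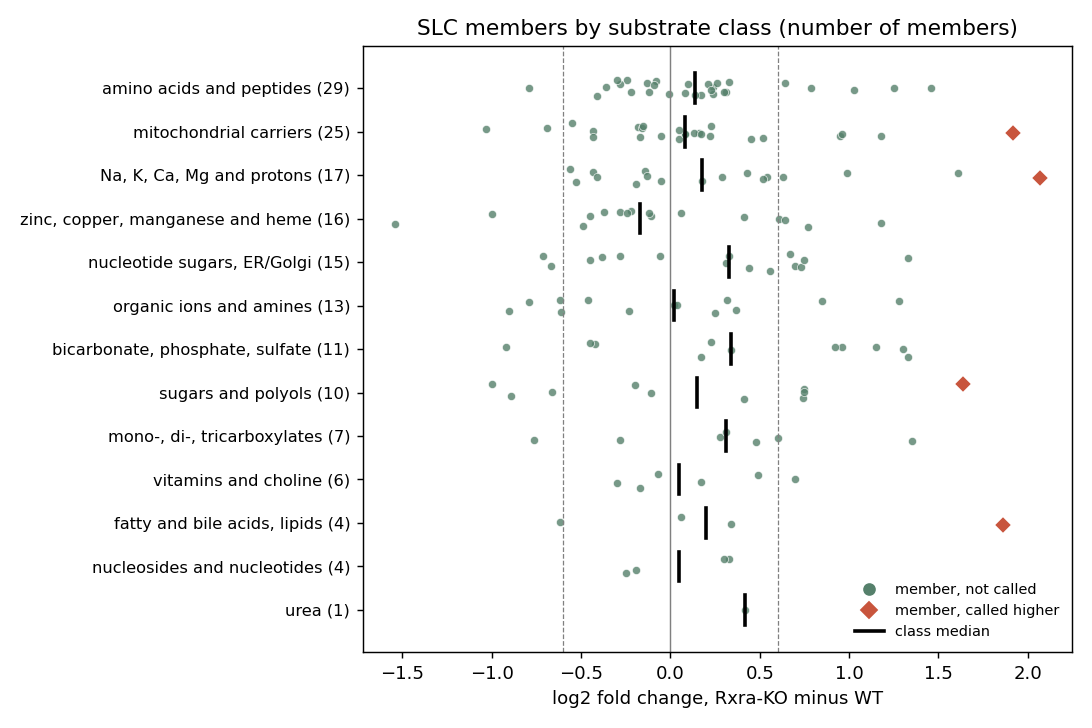
Log2 fold change (Rxra-KO minus WT) of each SLC member by substrate class, with the class median as a black bar, the number of members in parentheses and dashed lines at the threshold of 0.6. Class medians run from -0.17 for metals and heme to 0.42 for the single urea carrier, and the 4 called members lie in different classes.

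Carriers placed in lysosomes and endosomes were also counted across classes. Of 16 such genes in the data 14 were members and 1 (6.25%), Slc9a9, was called higher, beside 2.29% of all genes called. Of the 16, 3 had an unadjusted limma p under 0.05, and 10 overlapped between the groups. The median of the 16 was 0.19, or 0.15 over the members. The summed signal of the 16 was 659 and 621 in WT against 807 and 838 in Rxra-KO. Most of the difference in this sum came from Slc48a1 (143 and 168 against 242 and 232) and Slc9a9 (29.5 and 13.6 against 102 and 75). The fold change was below 0 for 5 of the 16 genes. The lysosomal arginine sensor Slc38a9 had 71.9 and 65.6 in WT against 42.9 and 78.0 in Rxra-KO, and the peptide and histidine carrier Slc15a3 had 28.0 and 43.9 against 24.8 and 33.3.

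The summed signal of all members was 7772 and 7916 in WT against 8444 and 8929.6 in Rxra-KO, a ratio of means of 1.11. Without Slc25a3 and Slc25a5 it was 5201 and 5179 against 5509 and 5791, a ratio of 1.09. By class the ratio ran from 1 for organic ions to 1.42 for anions, and in 8 of 13 classes both Rxra-KO libraries were above both WT libraries. Of single genes that averaged at least 10, 21.9% had this order, but no such share was drawn for sums. Without Slc25a3 and Slc25a5 the mitochondrial carriers overlapped, at 891 and 902 in WT against 781 and 932 in Rxra-KO. The sums include the 18 members that averaged under 10 in WT, so the count of classes is a description only. These sums add signals that are not divided by length, so long and abundant transcripts weigh most in them.

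**Figure D4:**
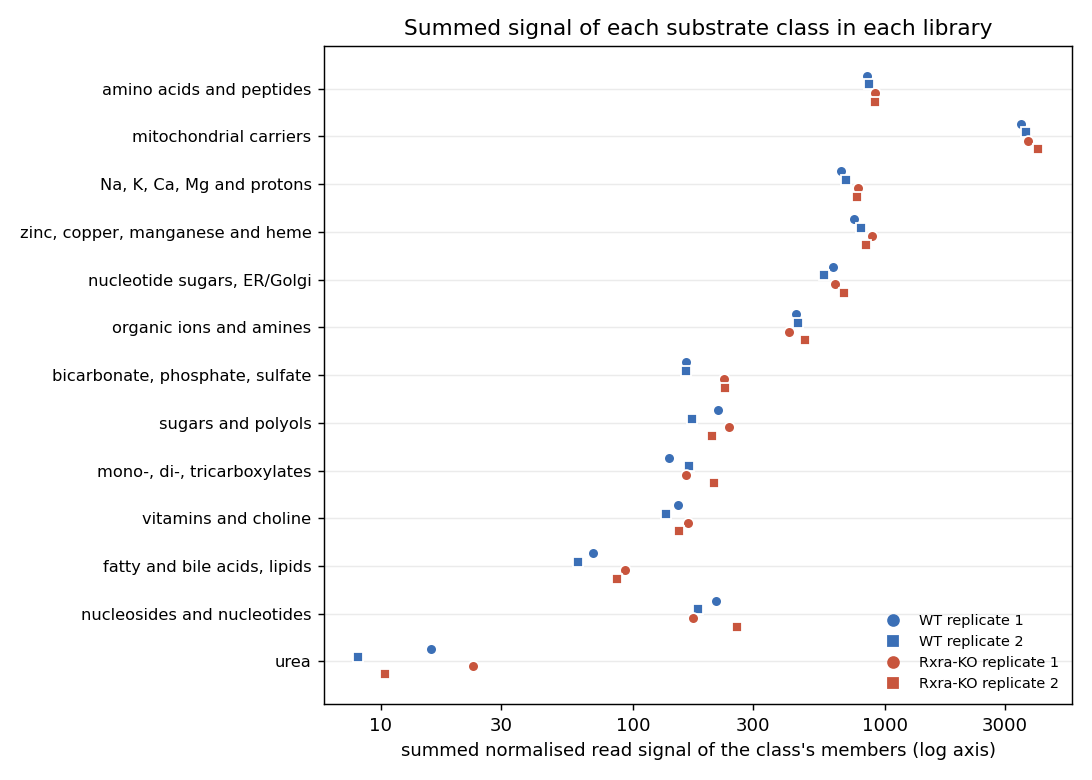
Summed normalised read signal (log axis) of the members of each substrate class in the WT (blue) and Rxra-KO (red) libraries, with circles for replicate 1 and squares for replicate 2. Mitochondrial carriers lie highest at 3462 to 4071, and anion carriers show 163 and 162 in WT against 231 and 232 in Rxra-KO.

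Genes that work with SLCs but carry other symbols gave 3 calls. Of all genes 2.29% were called, and of those that averaged at least 10 the share was 4.1%. Of 20 chaperones and carriers in the table, 2 (10%) were called higher and 3 had an unadjusted p under 0.05, with a median of 0.35. Emb (embigin), an accessory chain of monocarboxylate carriers, had 30 and 51 reads in WT against 177 and 90 in Rxra-KO, which gave a log2 fold change of 1.59 with a limma adjusted p of 4.94e-05. Slc9a3r2, a scaffold that binds sodium/proton exchangers and other membrane proteins, had 120 and 141 reads against 227 and 473, at 1.26 (adjusted p = 5.03e-05). Bsg (basigin), the other accessory chain, had 42 and 63 reads against 42 and 45, at -0.30 (adjusted p = 0.875). Among 15 carriers of the MFSD family Mfsd6 was called higher, with 74 and 102 reads in WT against 133 and 294 in Rxra-KO (1.11; adjusted p = 0.00212). None of 12 organic anion polypeptide genes (SLCO) was called by limma, and 3 had an unadjusted p under 0.05.

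At the level threshold itself, the members just inside were Slc25a26, Slc6a7 and Slc28a1 with a mean of 10.1 each, and the genes just outside were Slc17a3 at 9.93 and Slc6a11 and Slc25a40 at 9.75. Of the 176 SLC genes under the threshold none was called by limma and 7 had an unadjusted p under 0.05, 3 higher and 4 lower, with a median fold change of 0.15.

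**Figure D5:**
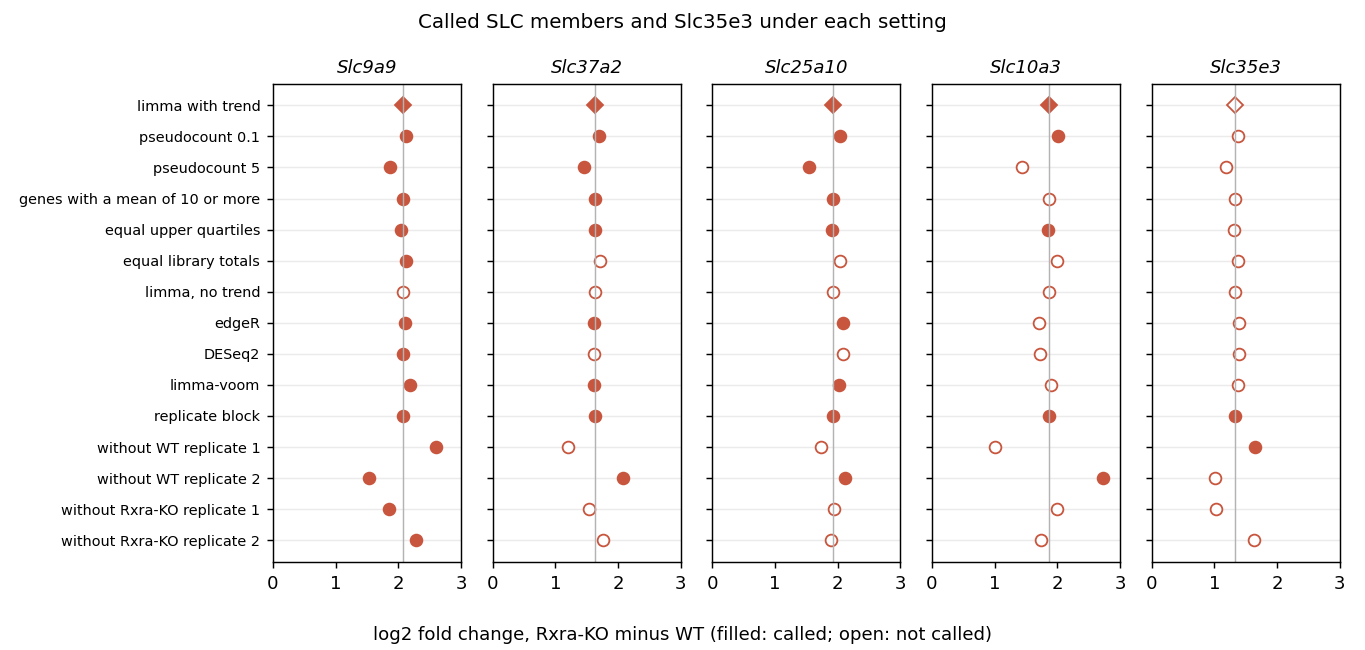
Log2 fold change (Rxra-KO minus WT) of the 4 called members and of Slc35e3 under the fit used here (diamond) and under other settings (circles), filled where the gene was called. Slc9a9 is filled in every row but limma without a trend, and Slc10a3 runs from 1.01 without WT replicate 1 to 2.72 without WT replicate 2.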

How the data were processed

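RNA of LPMs was amplified with the SMART-Seq v4 Ultra Low Input kit, which has no molecular identifiers, and reads were quantified by the authors with Kallisto 0.43.0, tximport and limma with TMM scaling. The signal deposited by the authors is (reads + 0.5) over a scaled library size, so whole reads were recovered from it: 100% of the values came within 0.01 of a read. Estimates of Kallisto can be fractions, and its reference is named as human (GRCh38), so what gave these reads is not given in the sources used here. Log2(signal + 1) of all 18364 genes was fitted with limma 3.58.1 (R 4.3.3), with a mean-variance trend on 4 libraries and no covariate, two-sided, and Benjamini-Hochberg adjustment over all genes. A filter of at least 1 in 2 libraries removed 0 genes. With 2 against 2 libraries an exact permutation test cannot go below 0.333, so p-values rest on the spread shared across genes (227 prior and 2 residual degrees of freedom). Alternatives were other pseudocounts, scalings and level minimums, limma without a trend, limma-voom, edgeR 4.0.16 and DESeq2 1.42.0 on recovered reads, a replicate block, and each library left out. Reads without identifiers are not independent molecules. Levels per kb used the exon union of protein-coding transcripts in GENCODE M21.

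The members, classes and gene lists were chosen with earlier results of these data known. Named were every called member, the 3 most abundant of each class, the 5 uncalled members of smallest p, the 3 genes on each side of the level threshold, and called genes of the lists. Other members were named after their values were seen, and some items are not reported here. Exon overlap, in either strand, was found for 42 members, in 7 of them on the same strand.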

Additional observations from a re-analysis of the deposited data

How the results depend on the processing

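The count of 4 members called higher became 1 with equal library totals, 0 with limma without a mean-variance trend (0 genes called in all, 12 members at an unadjusted p under 0.05), 1 with DESeq2, 1 with DESeq2 without independent filtering (added after seeing the data) and 2 at an adjusted p under 0.01. Leaving out 1 library gave 1 to 4 members called higher and 0 to 1 lower, the latter being Slc25a11 without WT replicate 2. The higher count was 2 without WT replicate 1, and 1 without either Rxra-KO library. The median log2 fold change of the members was 0.05 for members with a mean of at least 20, and 0.07 to 0.22 with 1 library left out. Genes called in all were 421, against 245 with equal library totals, 235 with DESeq2, 191 with DESeq2 without independent filtering, and 236 to 377 with 1 library left out. The causes were not tested. A group left with 1 library was taken to vary like the other.

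With a replicate block 5 members were called higher, Slc35e3 being the addition, and 540 genes in all. The labels give equal numbers to both groups but do not say that they mark a shared animal or day, and the deviations of equally numbered libraries had a correlation of 0.0629 over genes, so the numbers were not taken to pair the libraries. Of the 12 members followed through these fits none turned its direction, but they included every called member and the uncalled members of smallest p. Among all members, 28 turned direction without WT replicate 1 and 30 without WT replicate 2. The count was 23 without Rxra-KO replicate 1 and 32 without Rxra-KO replicate 2. With edgeR 6 members turned, with DESeq2 5, with or without independent filtering, and in each of the other fits 0 or 1. The median log2 fold change changed sign in at least 1 alternative for 8 of the 13 classes, in 7 of them without 1 library only. Fitting with no filter repeated the fit used here, since the filter removed 0 genes. In the other 15 fits Slc9a9 was called 14 times, Slc37a2 and Slc25a10 8 times each and Slc10a3 4 times. Slc35e3 was also called without WT replicate 1 (1.65). Members had a median of 16 reads per library.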
